A study of Mus musculus with 3 samples.

Results

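The RARα peaks described here lay at the ends of genes, where transcripts are cleaved and polyadenylated, and away from their starts. A listed peak was taken when its score was over 20 and up to 100, its summit was 1 kb or less from the 3′ end of a protein-coding gene, and the summit was more than 5 kb from the start of any protein-coding gene. Of 143280 listed RARα peaks, 31870 had such a score, and 722 of these met the conditions on position. The 722 peaks lay at the 3′ ends of 551 genes, out of 15146 protein-coding genes whose 3′ end could hold such a peak. The peaks were thus chosen by their RARα score and their position, so neither is a result. The RXRα signal, the input signal, the DNA sequence and the rest of each gene were not used for the choice.

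Chromatin came from the livers of wild type male C57BL/6 mice aged 3 months, for which the labels name no treatment. The 3 libraries were 1 precipitated with an antibody against RARα, 1 precipitated with an antibody against RXRα, and 1 of input chromatin that was not precipitated. Genotype, strain, sex, age and tissue were the same in the labels of all 3. Whether they came from the same mice or were prepared together is not stated there, so the antibody and such differences cannot be told apart. With 1 library for each, no comparison had a replicate check, no p-value was computed, and all values describe these libraries. The RXRα and input tracks held signal worth 9999939 and 9999292 reads, which are nearly equal totals of normalised tracks and not the number of reads sequenced. The RARα peak list itself holds no depth. Intervals given below are 95% intervals that cover counting error alone. They treat peaks as independent although many abut each other, and so are too narrow.

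Retinoic acid receptors are nuclear receptors that bind DNA as heterodimers with retinoid X receptors and change transcription when retinoic acid is bound. The response elements of retinoid X receptors with their various partners include direct repeats of a hexamer. The repeats are separated by a few bases and called DR1 to DR5 after the spacing. Such elements are best known near gene starts and in enhancers. CTCF is a zinc finger protein with a long recognition sequence that bounds chromatin loops and insulates genes from each other. The liver is the main store of vitamin A, and the hepatocyte makes the plasma proteins, urea, glucose and bile acids of the body.

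Whole liver holds several cell types, and the peak list was checked against their markers. A RARα peak of score over 20 lay within 1 kb of the start of 4 of 4 hepatocyte markers (Alb, Ttr, Apoa1 and Cyp2e1). The same held for 0 of 3 Kupffer cell markers, 0 of 3 cholangiocyte markers, 1 of 3 stellate cell markers (Lrat) and 2 of 3 endothelial markers (Stab2 and Kdr). Over the 15146 protein-coding genes whose 3′ end could hold a peak of the choice, the share was 45.6%. The markers of each type are too few to set their counts against that share. A bound fraction of cells and the strength of binding within a cell cannot be told apart in such chromatin.

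A sequence found more often near these summits than beside them was a 12-base run like the core of the CTCF recognition sequence, with CC, AG and GGC at fixed places in it. The 8 highest-scoring peaks that held it are shown because the run was also rarer at gene ends in general. Each is printed 5′ to 3′ on the strand of the match, with the fixed letters of the 12-base run in capitals and 5 bases on either side. The coordinates are those of the 12 bases in NCBI37/mm9.
Atg2a, chr19:6263324-6263335, plus strand: gctgtCCtccAGaaGGCtgctg
Frmd8, chr19:5850364-5850375, minus strand: tgtgaCCagcAGggGGCagctg
Ahsg, chr16:22900118-22900129, plus strand: tagtcCCcagAGtaGGCtgggt
Slc23a3, chr1:75121231-75121242, plus strand: aatacCCtgcAGggGGCagtaa
Med29, chr7:29171693-29171704, minus strand: tgaaaCCagcAGggGGCagcag
Lmod1, chr1:137264970-137264981, minus strand: gttttCCtcgAGgtGGCgctgc
Rnf19b, chr4:128763529-128763540, minus strand: ttcttCCtccAGatGGCaccaa
Fermt1, chr2:132729490-132729501, minus strand: atcagCCcatAGggGGCaaaag

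The RARα gene itself had such a peak behind its own 3′ end. This peak of Rara had a score of 60 and its summit lay 564 bp downstream of the end of the gene. It held the following match, 42.5 bp from the summit, and it was the single peak of its run.
Rara, chr11:98836857-98836868, plus strand: gtcagCCactAGgtGGCagcag

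Direct repeats of the receptor hexamer were much rarer at these peaks. Within 100 bp of a summit, 5 of 722 peaks held a DR1 to DR5, and these 5 are named after their values were seen. They lay at Fam40a and Bcar1 (DR1), Zfp446 (DR2), Ahcy and H6pd (DR4), and 0 of them was within 20 bp of the summit. The following lines show 1 example of each spacing, with both hexamers in capitals. Ahcy encodes the enzyme that hydrolyses S-adenosylhomocysteine in the methionine cycle.
Fam40a DR1, chr3:107416195-107416207, plus strand: gccatAGGTCAtAGTTCAtctgg
Zfp446 DR2, chr7:13568793-13568806, minus strand: gttcaAGTTCAggAGTTCAaaggc
Ahcy DR4, chr2:154885089-154885104, plus strand: tttccAGGTCAaatgGGTTCAgtaaa

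The 722 peaks were mostly of low score. The median score was 28 and the range 21 to 94. A score of 21 to 30 was given to 413 peaks (57.2%). The false discovery rate in the list was 0 for 472 of them and at most 2.4%. The 2 highest scores of 94 were at Tex2 and 2410002F23Rik, followed by 92 at Alas1, the first enzyme of heme synthesis, and at 1700001O22Rik. Fgb, the fibrinogen beta chain, had 88, and Atg2a, C87436 and Lpin1 each had 87. Lpin1 encodes a phosphatidate phosphatase of triglyceride synthesis.

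RXRα binding at these peaks was expressed as a ratio of RXRα to input, each averaged across the bins of the peak, with the input set to no less than its genome mean of 0.603 per 32 bp bin. This RXRα enrichment had a median of 2.90 (2.65 to 3.15), quartiles of 1.44 and 5.77, and a range of 0 to 46.8. The RXRα signal itself had a median of 4.17 per bin and the input signal a median of 1.64. Input was above its genome mean at 641 of the 722 peaks (88.8%), a share close to the 88.1% to 90.7% at peaks of the same score elsewhere in the genome. The part of raised input in the RARα calls was not tested.

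An RXRα region was defined as bins in which RXRα was at least 20 times the input, and a peak was counted as co-localized when a region overlapped at least 25% of the narrower interval. By this definition 174 of the 722 peaks (24.1%, 21.1 to 27.4) were co-localized with RXRα. Over all 31870 RARα peaks of the same score the share was 31.8%, and it was 31.4% over those more than 5 kb from any gene start. The RXRα enrichment of the 174 co-localized peaks had a median of 11.2 (10.2 to 13.0), against 2.09 (2.0 to 2.3) at the other 548. The first of these medians follows largely from the definition of a region.

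The peaks with the most RXRα were not those with the highest RARα score. At Xrcc1, a DNA repair scaffold, the RXRα signal was 88.9 and the input signal 1.90, an enrichment of 46.8 with a RARα score of 24. At Tnks1bp1 the enrichment was 44.9 with a score of 22. At Tmem50a the RXRα signal reached 122 over an input of 2.86, an enrichment of 42.7 with a score of 28. The next were Hspb8 (enrichment 39.7, score 27), Frmd8 (38.5, score 25), Hip1r (35.3, score 22), Wdr45l (34.8, score 34) and Cyp2c44 (33.9, score 28). All 8 had RARα scores of 34 or less, where most of the 722 peaks also lay (median 28, upper quartile 40.75).

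At the other extreme, the RXRα signal was 0 over the whole of 8 peaks. At Gdap1 (score 22), Gpr1 (score 22), 1200016B10Rik (score 25) and Qsox1 (score 25) the input signal was 2.64, 1.36, 2.80 and 0.143. RXRα enrichment was under 1 at 126 of the 722 peaks (17.5%, 14.9 to 20.4), compared with 10.7% of all peaks of these scores. Inside genes the share was 15.7% and between genes 16.2%, both within that interval, and at gene starts it was 2.62%. It was over 10 at 108 (15.0%, 12.5 to 17.7), compared with 19.6%. Across the 722 peaks, which share the same libraries, the Spearman correlation between RARα score and RXRα enrichment was 0.033.

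**Figure D1:**
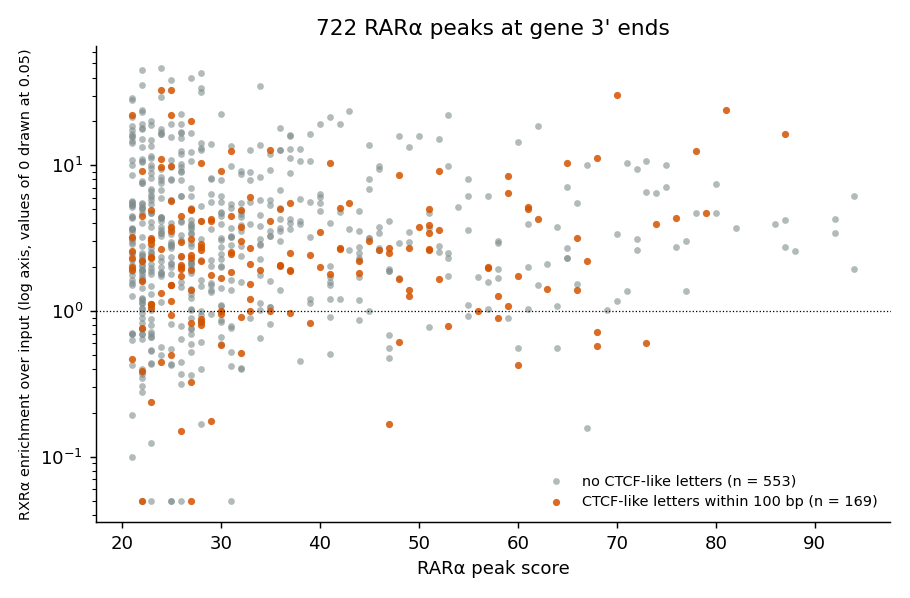
Each point is 1 of the 722 RARα peaks at gene 3′ ends, with its RARα score on the x axis and its RXRα enrichment over input on a logarithmic y axis (8 peaks with no RXRα signal are drawn at the bottom). Orange points are the 169 peaks with CTCF-like letters within 100 bp of the summit and grey points the other 553, and enrichments from under 1 to over 10 occur at low and at high scores in both.

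Compared with RARα peaks of the same scores in other positions, the 3′ end peaks had the lowest median RXRα of the 4 sets. Median RXRα enrichment was 4.64 at the 10484 peaks within 1 kb of a gene start, 3.64 at 9101 peaks inside genes and 3.36 at 7666 peaks between genes. The interval of the last set, 3.24 to 3.50, lay above that of the 3′ end peaks. The RXRα signal without division by input had the same order, with medians of 4.17 at 3′ ends, 6.76 at starts, 5.0 inside genes and 4.94 between genes. Input medians were 1.64, 1.55, 1.75 and 1.76 in that order.

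Co-localization with RXRα was 24.1% at 3′ ends, against 31.1% at gene starts (30.2 to 32), 32.2% inside genes (31.3 to 33.2) and 31% between genes (30 to 32). With RXRα regions at 10 times input the share at 3′ ends was 43.8%, below 64.4%, 50.1% and 48.7% in the same order. At 30 times input it was 15.2% (12.8 to 18.0), below 23.7% inside and 22.3% between genes, but within its interval of the 16.6% at starts. When abutting RARα peaks were merged first, 501 peaks remained at 3′ ends and 30.5% (26.7 to 34.7) of them were co-localized. The 32.5% of merged peaks between genes then lay within that interval, while the values at starts (40.0%) and inside genes (39.4%) lay above it.

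The 3′ end peaks differed from peaks at gene starts in base composition as well. The window of 100 bp to either side of a summit had a median GC content of 50.7% at 3′ ends and 64.2% at starts, and a median of 3 and 17 CpG dinucleotides. Inside and between genes the GC content was 48.8% and 49.3%. The 3′ end peaks were thus close to other distal peaks in composition. A transcript start of any kind lay within 1 kb of 51 of the 722 summits, and 14 of these 51 peaks (27.5%, 17.1 to 40.9) were co-localized with RXRα. Of the 671 without one, 160 were (23.8%, 20.8 to 27.2).

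RARα summits were placed on both sides of the gene end and somewhat more often behind it. Downstream of the annotated 3′ end lay 411 summits (56.9%, 53.3 to 60.5) and upstream or on it 311, with a median position of 145 bp downstream. By annotation, 368 summits were outside genes, 221 in an untranslated exon, 72 in an intron, 53 in a coding exon and 8 in another kind of exon. Gene ends on both strands lay within 1 kb of 53 summits, and at these it cannot be told which gene the peak belongs to.

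The density of RARα peaks of these scores was taken within 5 kb of gene ends and more than 5 kb from any gene start. Position was part of the choice and abutting peaks were counted singly, so the density is a description. Among the distances listed next it was highest in the first 1 kb behind the end. That 1 kb was not set apart in 250 bp steps. There the density was 34.5 per Mb from 250 to 500 bp and 33.0 from 1500 to 1750 bp behind the end. The density was 17.6 peaks per Mb from 5 to 3 kb upstream of the end and 18.9 from 3 to 1 kb upstream. It was 23.1 in the last 1 kb of the gene, 30.5 in the first 1 kb behind it, 26.6 from 1 to 3 kb behind it and 19.5 from 3 to 5 kb behind it. All these values exceeded the 10.4 per Mb inside genes and 5.25 per Mb between genes, and all were far below the 248 per Mb around gene starts. CTCF-like letters were found at 23.8% of downstream and 22.8% of upstream summits. Co-localization with RXRα was 27.0% (22.9 to 31.5) downstream and 20.3% (16.2 to 25.1) upstream, and these intervals overlap.

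**Figure D2:**
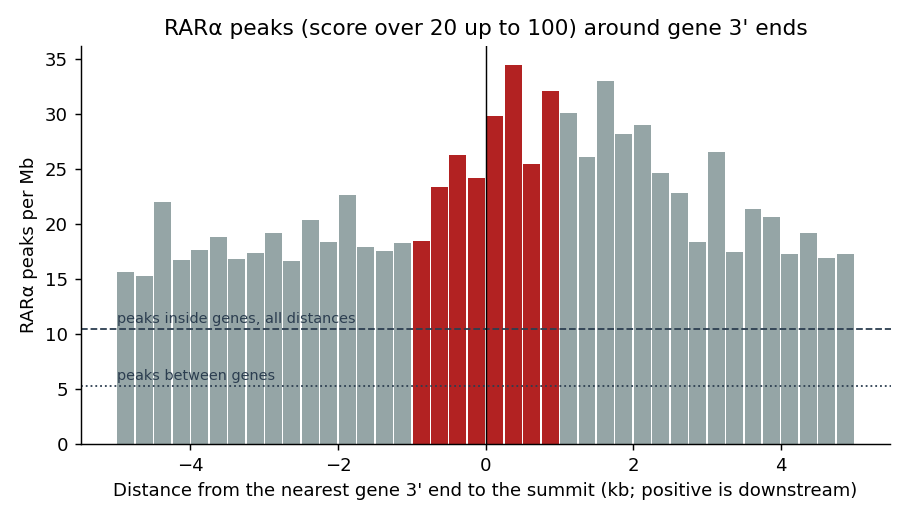
Bars give the number of RARα peaks (score over 20 up to 100, over 5 kb from any gene start) per Mb in 250 bp steps from 5 kb upstream to 5 kb downstream of the nearest protein-coding gene 3′ end, and the red bars hold the 722 peaks. The dashed line is the density inside genes (10.4 per Mb) and the dotted line that between genes (5.25 per Mb), and the bars near and up to 2 kb behind the end are mostly higher than those farther away on either side.

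RXRα was also raised around the ends of these genes. Over the 2 kb centred on the gene end, median RXRα enrichment was 2.32 (2.01 to 2.52) at the 551 genes and 0.527 at the 14595 other genes. It was over 2 at 54.3% of the 551 genes and at 6.52% of the others. The input signal over the same 2 kb was higher too, with medians of 1.19 and 0.556, and its part in the difference was not tested. Since a RARα peak was required at the 551 genes, the comparison says that places with a RARα peak held more RXRα and more input than places in general.

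**Figure D3:**
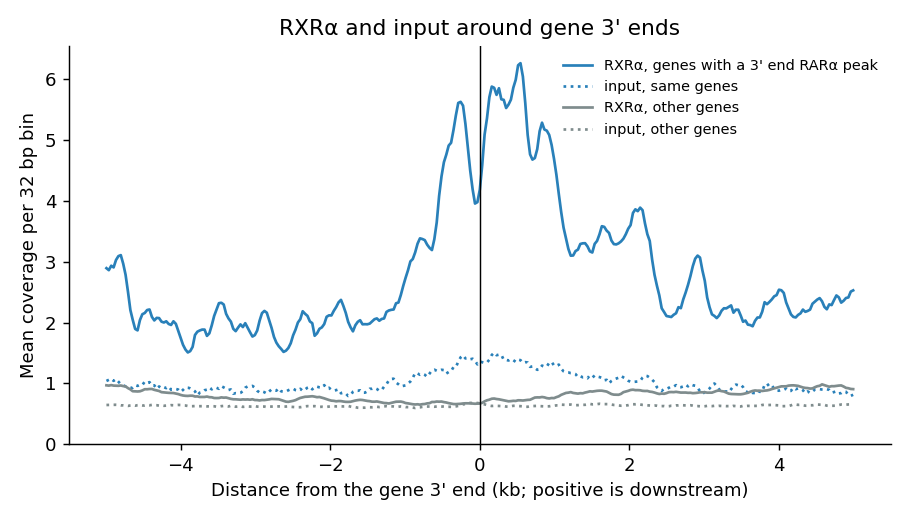
Lines give mean coverage per 32 bp bin from 5 kb upstream to 5 kb downstream of the gene 3′ end, for RXRα (solid) and input (dotted) at the 551 genes with a 3′ end RARα peak (blue) and the 14595 other genes (grey). At the 551 genes mean RXRα was 5.63 at 256 bp upstream, 3.95 at 64 bp upstream and 6.26 at 544 bp downstream of the end, while input was 1.36 at the end itself and the other genes stayed near 0.67 there in both tracks.

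CTCF-like letters lay within 100 bp of 169 of the 722 summits (23.4%, 20.5 to 26.6). The same letters were found in 4.22% of windows 500 bp to either side of these summits and in 2.14% of windows of the same length centred on the 3′ ends of the 15146 genes. Both strands were searched. The nearest match had a median distance of 24.5 bp from the summit, and in 136 of the 169 it was within 50 bp. The sequence was therefore frequent at the summits of these peaks and rare at gene ends in general. It was not particular to 3′ ends, since 23% of RARα peaks inside genes, 33.2% between genes and 11.1% at gene starts held it. The letters had been chosen because they were frequent at distal RARα peaks in an earlier look at these data, so their presence is a description.

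The peaks with CTCF-like letters had less RXRα than the rest. An RXRα region overlapped 22 of these 169 peaks (13.0%, 8.76 to 18.9) and 152 of the other 553 (27.5%, 23.9 to 31.4). Median RXRα enrichment was 2.43 (2.05 to 2.69) with the letters and 3.16 (2.83 to 3.56) without. The RARα score was slightly higher with them, with a median of 32 against 27. Input had a median of 1.43 with the letters and 1.71 without. The peaks also differed in run length. With the letters, 111 peaks (65.7%) were alone in their run of abutting RARα peaks, and without them 145 (26.2%). All 256 such lone peaks, with or without the letters, had a co-localized share of 17.2% and a median RXRα enrichment of 2.32. Whether the letters went with less RXRα among peaks in runs of the same length was not tested.

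Peaks with the letters still spanned a wide range of RXRα. Among the 8 printed first, Fermt1 (score 70) had an RXRα signal of 82.2 over an input of 2.72, an enrichment of 30.2. Rnf19b (score 73) had an RXRα signal of 0.870 over an input of 1.43, an enrichment of 0.606. Between them lay Frmd8 (24), Atg2a (16.3), Slc23a3 (12.6), Ahsg (4.74), Med29 (4.33) and Lmod1 (3.94). At Rara the enrichment was 1.74, from an RXRα signal of 3.92 and an input of 2.25.

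The receptor hexamer was searched on either strand as AGGTCA and, with T inside it, as AGTTCA. The forms with G at the start were GGGTCA and, again with T inside it, GGTTCA. Any of these was present at 306 of the 722 summits (42.4%, 38.8 to 46.0). It was about as frequent in the windows 500 bp away (41.6%) and less so at gene ends in general (31.5%). With an RXRα region it was found at 52.9% (45.5 to 60.1) of the summits and without one at 39.1% (35.1 to 43.2). The share of 0.693% with a DR1 to DR5 was close to that of all peaks of these scores (also 0.693%) and of the flanking windows (0.762%). At gene ends in general it was 0.324%, within the interval of 0.296 to 1.61 at the summits. Of the 5 repeats, those at Bcar1 (RXRα enrichment 12.7), Zfp446 (19.3) and Ahcy (6.11) lay in peaks with an RXRα region, and those at Fam40a (4.90) and H6pd (4.84) did not.

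The 3′ end peaks were often part of long runs of RARα peaks. Peaks 10 bp or less apart, of any score, were joined into a run. Of the 722 peaks, 256 (35.5%) were alone in their run, 217 were in runs of 2 to 4 peaks, 107 in runs of 5 to 9, and 142 (19.7%, 16.9 to 22.7) in runs of 10 or more. Of all 31870 peaks of these scores, 43.5% were alone and 6.88% were in runs of 10 or more. Inside genes the latter share was 14.7%, between genes 2.78% and at gene starts 1.04%. The longest run had 120 peaks over 67270 bp and reached behind the 3′ end of Cps1.

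Peaks in runs of different length differed in sequence and, for runs of intermediate length, in RXRα. CTCF-like letters were present at 43.4% (37.4 to 49.5) of the single peaks, 19.8% in runs of 2 to 4, 11.2% in runs of 5 to 9 and 2.11% (0.721 to 6.03) in runs of 10 or more. Co-localization with RXRα did not follow that order. It was highest in runs of intermediate length, with 17.2% (13.1 to 22.3) at single peaks, 35.5% (29.4 to 42.1) in runs of 2 to 4, 32.7% (24.6 to 42.1) in runs of 5 to 9 and 12.7% (8.17 to 19.1) in runs of 10 or more. Median RXRα enrichment was 2.32, 4.02, 3.41 and 2.53 in that order, while the input medians were 1.55, 1.60, 1.80 and 1.75. The decline of CTCF-like letters with the length of the run was seen in the same way for peaks inside genes, from 36.3% to 2.40%, and between genes, from 41.8% to 4.23%. Co-localization was also highest in runs of 2 to 4 inside genes (50.6%) and between genes (50.2%). There it was 28.0% and 22.1% at single peaks, and 9.51% and 29.1% in runs of 10 or more. At gene starts it differed less, with 29.5% at single peaks and 35.9% in runs of 5 to 9.

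**Figure D4:**
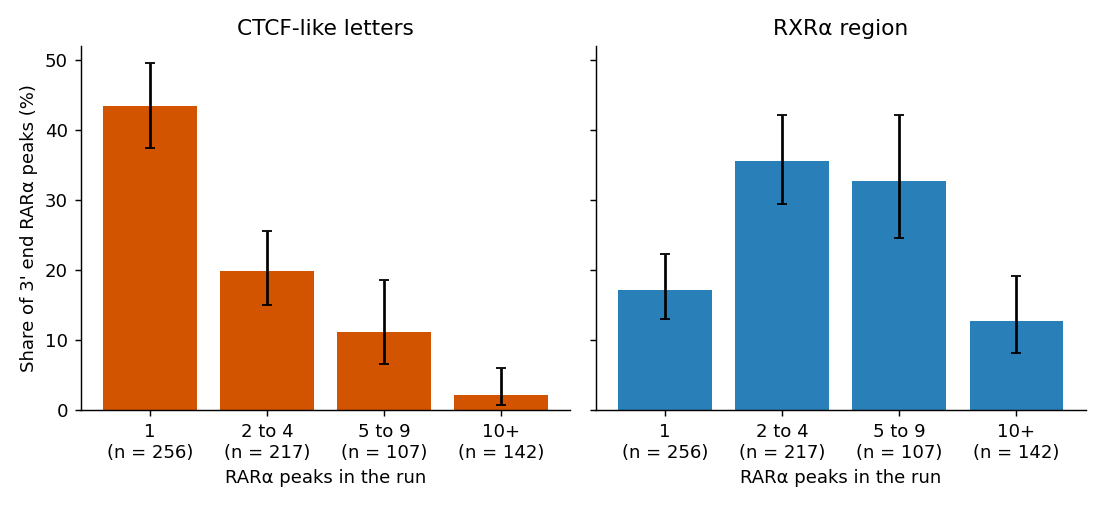
Bars give the share of 3′ end RARα peaks with CTCF-like letters within 100 bp of the summit (left) and with an overlapping RXRα region (right), by the number of RARα peaks in the run, and error bars are 95% Wilson intervals for counting error. The share with CTCF-like letters falls from 43.4% to 2.11% with longer runs, and co-localization with RXRα is highest in runs of 2 to 9 peaks.

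Outside their last 1 kb, the genes with a 3′ end peak were covered more by RARα peaks than genes in general. Most were still covered below 50%. Of the 551 genes, 333 (60.4%, 56.3 to 64.4) also had a RARα peak of score over 20 within 1 kb of their start, compared with 45.9% of the 14778 genes of at least the same minimum length. RARα peaks of any score covered a median of 9.48% of the gene without its last 1 kb, against 2.31% over all 15146 genes. At least 50% was covered in 99 of the 551 genes (18.0%) and in 1.44% of all. Of 46 genes covered to at least 90%, 37 were among the 551. A gene covered along its length tends to have a peak at its end, so this overlap follows in part from the choice. The genes with a 3′ end peak were slightly shorter, with a median length of 20931 bp against 25398 bp.

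The number of such peaks at a gene ran from 1 to 5. Of the 551 genes, 438 had 1 such peak, 73 had 2, 25 had 3, 12 had 4 and 3 had 5. The 3 genes with 5 were Cps1, Tdo2 and Rbp4. Cps1 encodes the enzyme that commits ammonia to the urea cycle, and 97.5% of its body was covered by RARα peaks. Its 5 peaks had scores of 31, 23, 36, 48 and 31 from upstream to downstream and RXRα enrichments of 3.22, 0.536, 1.39, 1.67 and 0.523.

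Tdo2 encodes tryptophan dioxygenase, which opens the kynurenine pathway. All 5 of its peaks lay in an untranslated exon, with scores of 67, 35, 28, 27 and 21 and RXRα enrichments of 0.158, 1.06, 0.848, 0.364 and 1.64. The peak of score 67 had an RXRα signal of 0.375 below an input signal of 2.38. Rbp4, the plasma carrier of retinol, had scores of 47, 30, 25, 22 and 22 and enrichments of 1.89, 2.28, 0.811, 2.05 and 2.40. Of the 15 peaks at these 3 genes, 0 was co-localized with RXRα, beside 24.1% of all 722 peaks. For all 3′ end peaks in runs of 5 to 9 the share was 32.7%, and in runs of 10 or more 12.7%. Peaks of 1 gene are neighbours, so the 15 are not independent. Frmd8, with 4 peaks, was of another kind: RXRα enrichment was 10.4, 9.76, 38.5 and 24 at scores of 28, 26, 25 and 81, and RARα peaks covered 13.7% of its body.

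Gene groups with a role in the liver were compared by the share of their eligible genes that had a 3′ end peak, beside 551 of all 15146 eligible genes (3.64%). The share was 37.8% for plasma proteins (14 of 37, 24.1 to 53.9) and 37.5% for amino acid and glucose metabolism (15 of 40, 24.2 to 53.0). It was 28.6% for liver transcription factors and clock genes (8 of 28) and 15.9% for fatty acid metabolism (7 of 44). Sterol and bile acid metabolism had 15.6% (5 of 32), and retinoid metabolism and nuclear receptors had 13.2% (5 of 38, 5.75 to 27.3). Of 3 eligible apolipoprotein genes, Apob had 4 such peaks. RARα peaks covered a median of 53.6% of the body of an eligible plasma protein gene, 29.8% for apolipoproteins, 27.7% for amino acid and glucose metabolism and 26.2% for transcription factors and clock genes. The medians were 17.9% for sterol and bile acid metabolism, 14.4% for fatty acid metabolism and 8.31% for retinoid metabolism and nuclear receptors. Over all eligible genes this median was 2.31%. The lists were drawn up with earlier results of these data known, and mRNA levels of their genes were not analysed here.

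**Figure D5:**
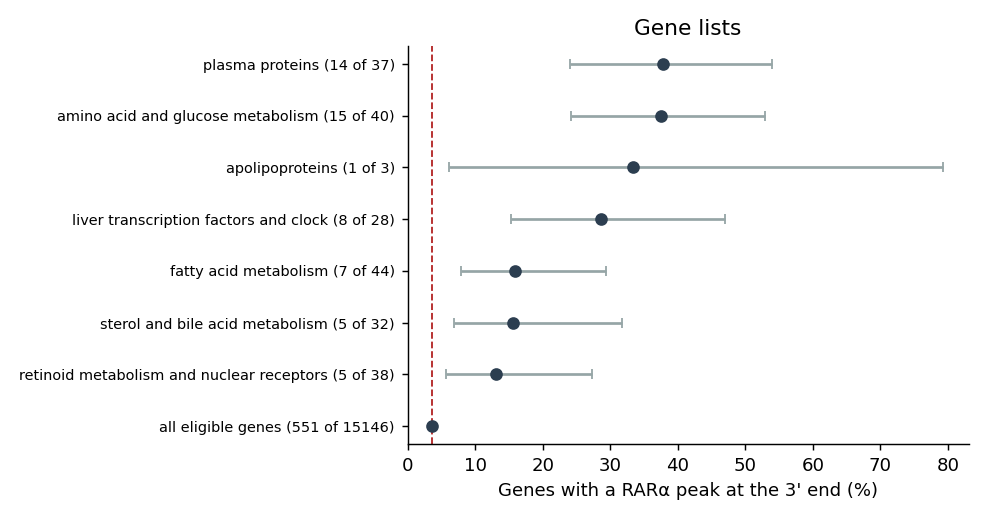
Points give the percentage of eligible genes of each list with a RARα peak at the 3′ end, with 95% Wilson intervals for counting error, and the dashed line marks the 3.64% of all 15146 eligible genes. The intervals of all 7 lists lie above the line, and the interval of the 3 apolipoprotein genes spans most of the axis.

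Among plasma proteins, the 3 fibrinogen genes lie next to each other on chromosome 3 and all had 3′ end peaks. Fgb had scores of 88, 74 and 61, with RXRα signals of 3.13, 12.4 and 4.23 over inputs of 1.22, 1.94 and 1.08. Fgg had scores of 77 and 22 and RXRα enrichments of 3.04 and 1.44, and Fga had scores of 37 and 33 and enrichments of 13.0 and 7.97. At Fgb 1 of 3 peaks was co-localized with RXRα, at Fga both and at Fgg neither. RARα peaks covered 98.5%, 98.8% and 98.6% of the bodies of Fgb, Fgg and Fga.

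The other plasma protein genes with 3′ end peaks varied in their RXRα signal. Ahsg, which encodes fetuin-A, had scores of 79, 57 and 49 and RXRα enrichments of 4.74, 1.04 and 2.96. At Hrg, histidine-rich glycoprotein, the peak of score 28 had an RXRα signal of 19.2 over an input of 0.583, an enrichment of 31.9, and the peak of score 22 had 0.692. Itih3 had an enrichment of 15.6 at a score of 21 and 1.48 at a score of 23. Hpx, which binds heme, had 4 peaks, and input was 0 over 2 of them, where the enrichments of 2.88 and 5.39 rest on the genome mean input. Kng1, C3, Gc, Serpinf2, Angptl4, Ttr and Rbp4 made up the 14. Of the 33 peaks at these genes 6 (18.2%) were co-localized with RXRα and 23 (69.7%) were in runs of 5 or more. Over all 722 peaks these shares were 24.1% and 34.5%. Co-localization was 32.7% for all 3′ end peaks in runs of 5 to 9 and 12.7% in runs of 10 or more. Median RXRα enrichment of the 33 peaks was 2.88.

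The 36 peaks at genes of amino acid and glucose metabolism had a median RXRα enrichment of 1.65, against 2.90 over all 722 peaks. Of the 36, 31 were in runs of 5 or more and 3 (8.33%) were co-localized with RXRα. Over all 722 peaks these shares were 34.5% and 24.1%. Co-localization was 32.7% for 3′ end peaks in runs of 5 to 9 and 12.7% in runs of 10 or more. Pck1, the enzyme at the first committed step of gluconeogenesis, had a peak of score 76 in an untranslated exon, with an RXRα signal of 8.37 over an input of 3.04. Tat, which degrades tyrosine, had 4 peaks with scores of 34, 32, 30 and 21 and RXRα enrichments of 2.90, 4.89, 0.836 and 3.13. Input at these Tat peaks was 2.82, 4.50, 3.44 and 5.71, all high against the median of 1.64. Ass1 of the urea cycle had scores of 65, 38 and 32 and enrichments of 2.72, 3.96 and 2.81.

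Other genes of this list with a 3′ end peak were Ahcy, Hpd, Sds, Mat1a, Pklr, Eno1, Asl and Glul. At Ahcy the single peak of score 57 lay 41 bp behind the gene end, with an RXRα signal of 16 over an input of 2.62, and it was co-localized with RXRα. Mat1a, which makes S-adenosylmethionine, had scores of 32, 31 and 28 with RXRα signals of 3.48, 2.25 and 0.750. Eno1 and Asl were the genes of the list with CTCF-like letters, at RXRα enrichments of 0.588 and 1.12 and at scores of 30 and 23.

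At the 7 fatty acid genes, 13 of 14 peaks were in runs of 5 or more and 0 of 14 was co-localized with RXRα. Over all 722 peaks these shares were 34.5% and 24.1%. Of all 3′ end peaks, 32.7% in runs of 5 to 9 and 12.7% in runs of 10 or more were co-localized. Median RXRα enrichment of the 14 peaks was 2.79. Lpin1 had 4 peaks with scores of 87, 45, 41 and 29 and enrichments of 2.77, 6.91, 4.0 and 3.65. Acsl1, which activates long-chain fatty acids, had scores of 30, 28, 27 and 24 and enrichments of 1.08, 0.400, 2.80 and 0.50. Fabp1, the liver fatty acid binding protein, had 1 peak of score 46 with an enrichment of 2.63. Slc27a2, Lpin2 and Bdh1 had 1 peak each, with enrichments of 3.08, 0.591 and 1.92.

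Apob, the protein of very low density lipoprotein, had scores of 39, 25, 23 and 23 and RXRα enrichments of 1.21, 9.75, 0.880 and 0.440. In sterol and bile acid metabolism, 3 of 6 peaks were in runs of 5 or more and 1 of 6 was co-localized. Over all 722 peaks these shares were 34.5% and 24.1%, and 6 peaks are too few to set against them. The co-localized peak was at Mvk of the mevalonate pathway. Its peak of score 41 was alone in its run, held CTCF-like letters 74.5 bp from the summit and was co-localized with RXRα. The RXRα signal there was 6.29, and the enrichment of 10.4 rests on the genome mean because input was 0.176. Insig1, Slc10a1, Slco1b2 and Fdft1 had enrichments between 0.750 and 2.54 without an RXRα region.

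The retinoid and nuclear receptor genes with a 3′ end peak were Rara, Rxra, Rbp4, Hnf4a and Nr1d1. Rxra, the gene of the partner receptor, had 4 peaks in a run of 13, with scores of 27, 23, 22 and 22. The RXRα signals were 7.86, 1.63, 2.90 and 0.692 over inputs of 2.10, 0.375, 0.900 and 2.0, and 0 of the 4 was co-localized with RXRα. RARα peaks covered 87.6% of the body of Rxra and 28.1% of that of Rara. Hnf4a, a master regulator of the hepatocyte, had scores of 24 and 21 and enrichments of 2.0 and 10.8, and the second was co-localized. The peak at Nr1d1, a repressor of the clock, was enriched 3.44 times at a score of 24. Median RXRα enrichment over the 13 peaks was 2.28 and 1 of the 13 (7.69%) was co-localized, beside 24.1% of all 722 peaks. Of the 13, 11 were in runs of 5 or more. For all 3′ end peaks, 32.7% in runs of 5 to 9 and 12.7% in runs of 10 or more were co-localized.

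Liver transcription factors and clock genes had RXRα near the level of all 722 peaks. Of their 12 peaks 3 were co-localized and 6 were in runs of 5 or more, with a median RXRα enrichment of 3.32. Klf15, a factor of fasting metabolism, had an RXRα signal of 38.7 over an input of 2.83 at 813 bp behind its end (enrichment 13.7, score 34) and 3.30 at its other peak. Per1 had an enrichment of 14.3 at a score of 21, from an RXRα signal of 16.5 over 1.15. Foxa3 had an enrichment of 7.03 with an RXRα region. Xbp1, Dbp, Onecut1, Mlxipl and Klf9 had enrichments between 0.706 and 3.93 without one.

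The limits of the choice passed through a continuous range of peaks. At 3′ ends, 57 peaks had a score of 21, just inside the limit, and 65 had a score of 20, just outside. A further 19 had a score over 100, the lowest of which was 104 at Cyp2e1, an ethanol-inducible cytochrome P450, with an RXRα enrichment of 9.69. By distance to the gene end, Slc2a1 (1000 bp, enrichment 3.70) and Pklr (999 bp, 3.07) were just inside, and Cdc25a (1002 bp, 0.870) and Arfgap2 (1002 bp, 0.583) just outside. By distance to a gene start, Xbp1 (5013 bp) and Pomc (5024 bp) were just inside, and Nat9 (4996 bp) and Klf16 (4995 bp) just outside. Of 5135 listed RARα peaks of any score in these positions, 4394 had a score of 20 or less and were not taken.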

How the data were processed

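Binding was measured by ChIP-seq in 3 libraries of mouse liver, with 1 library per antibody, and samples were grouped by their labels. The authors aligned reads with Bowtie and called RARα peaks with MACS. The study's methods name mm10 for alignment and NCBI37/mm9 for annotation, while the file headers name mm9. NCBI37/mm9 and GENCODE M1 genes were therefore used. Of the RARα peaks, 0 passed a chromosome end of NCBI37. In the tracks, 23 RXRα bins and 36 input bins were counted as past one. For RXRα and input the authors deposited signal, a coverage of whole numbers per 32 bp bin in which 1 read fills 5 bins. The RARα list deposited by the authors gives a score per peak and a false discovery rate in percent. The study's methods speak of a background limit of 20 fold of input, but do not say that the score is that fold. The RARα read coverage and the columns that name a strand were not used.

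The RXRα track was brought to the mean of the input track. RXRα regions (42117) were bins that reached 20 times the local or, if larger, the mean input, joined within 200 bp. A gene was eligible when some position within 1 kb of its 3′ end was more than 5 kb from every protein-coding gene start, among 22367 genes. The compared sets had the same scores and lay within 1 kb of a gene start, or more than 5 kb from gene starts and outside the 3′ end windows, inside or between genes. Sequence was searched in windows of 100 bp to either side of a summit on both strands, where matches of different motifs may overlap.

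Of other sequences, TGANTCA (AP-1) was found at 5.12% of the 722 summits and 5.22% of all 31870, TTGCNNAA (C/EBP) at 8.31% and 8.92%, TGTTTAC (FOXA) at 3.60% and 3.33%, GGGCGG (Sp1) at 8.03% and 23.6%, and CCGGAAG (ETS) at 1.11% and 6.01%. An inverted repeat of the hexamer spaced by 1 base was found at 0 summits. DR1 to DR5 had 2, 1, 0, 2 and 0 matches. AATAAA and ATTAAA, the polyadenylation hexamers, were found on the gene's strand at 9.28% and 5.82% of summits and 64.8% and 23.9% of gene ends, a contrast that the centring of the windows fixes.

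Shares have Wilson intervals and medians have order-statistic intervals, both of 95%. Peaks named are the 8 with the highest score, the 8 with the highest and 4 with the lowest RXRα enrichment, the 8 highest-scoring with CTCF-like letters, any with a direct repeat within 20 bp of the summit, those at genes of the lists, those next to each limit and those of the 5 genes with the most peaks. Ties went to the higher RXRα enrichment. The lists name 281 genes in all, of which Hmgcs1 had no match among annotated symbols. Values of some listed genes are not reported here. The members, lists and alternatives were chosen with earlier results of these data known. The scripts were tested on simulated data. Computations used Python 3.11.15, numpy 2.4.6, pandas 2.3.3, scipy 1.17.1, pysam 0.24.0 and matplotlib 3.10.9.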

Additional observations from a re-analysis of the deposited data

How the results depend on the processing

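Of 46 values recomputed under 16 settings, 31 stayed within the interval of the reported value, or for the number of peaks within 1.5 times of it, and 15 did not. The number of 3′ end peaks was 392 within 500 bp and 1346 within 2 kb of the end, 479 when every annotated transcript start was avoided by 5 kb, 309 with a score over 30, and 501 with merged peaks. The co-localized share was 43.8% and 15.2% with RXRα regions at 10 and 30 times input and 30.5% with merged peaks. Median RXRα enrichment was 3.31 within 100 bp of the summit and 1.70 with 1 added to the input in place of its floor. The share with CTCF-like letters was 17.6% and 26.7% in windows of 50 and 200 bp on either side, 29.1% with a score over 30, 31.9% with merged peaks and 13.6% with a stricter motif in which 1 free base had to be G. The share of genes with a peak at their start was 68.2% within 5 kb. The share of downstream summits ran from 56.1% to 58.6% over its 6 alternatives. The windows, thresholds and merging change these values by their construction. No paired analysis was possible because there was 1 library per antibody. Leaving out a replicate was not possible either. Depth limits the values of single peaks, since an RXRα signal below 1 per bin over a peak rests on a few reads, and an enrichment there has a wide counting error that was not computed.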
